A study of Mus musculus with 50 samples.

Results

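The genes described here are 8 genes of the choroid plexus, Ttr, Folr1, Kl, Otx2, Clic6, Aqp1, Sostdc1 and Prlr, measured in dissections of mouse frontal cortex. They were selected on measured counts, because the library P7 WT rep 2 stood out on such markers, and they are 8 of the 55487 genes in the deposited tables, of which 21897 were annotated protein-coding genes and 16330 were tested. What P7 WT rep 2 shows on these genes is therefore a description of the library that chose them, with no test, and tests were made in the other 49 libraries unless stated otherwise. All 8 passed the filter on low counts, which asked for the equivalent of 10 counts in at least 5 libraries, but in unequal numbers of libraries: Kl reached the minimum in 50, Clic6 and Aqp1 in 49, Sostdc1 in 44, Prlr in 43, Otx2 in 41, Ttr in 27 and Folr1 in 16.

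The study measured polyadenylated RNA by sequencing in the frontal cortex of Setd1a+/- mice (Het), which carry a heterozygous tm1d loss-of-function allele of Setd1a, and of wild-type mice (WT). There were 5 libraries of each genotype at each of 5 ages, named E14, E18, P7, P35 and P70 in the labels, and the embryonic ages are E14.5 and E18.5 in the study's methods, where frontal brain regions of embryos rather than frontal cortex were dissected. The labels give the strain as C57BL/6NTac for every sample, while the methods give a mixed C57BL/6NTac and C57BL/6J background and male animals from Het fathers and WT mothers. Nothing in the labels says which libraries came from the same litter. Total counts ran from 35507165 in E14 WT rep 1 to 43907318 in P35 Het rep 1, so 1 count was worth about the same in each library.

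The choroid plexus is a folded epithelium over a core of vessels and stroma that hangs in the brain ventricles and secretes cerebrospinal fluid. Its epithelium arises from the dorsal midline next to the cortical hem, lies against the medial wall of the developing cortex, and is not part of the cortical plate. Its cells are known for very high Ttr expression, for apical water and ion transport, and for carrying folate and hormones between blood and cerebrospinal fluid.

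Setd1a was examined first because it is the targeted gene. The level of Setd1a at E14 was 129, 130, 136, 119 and 119 CPM (counts scaled to the same TMM-adjusted library size) in WT rep 1 to rep 5 and 150, 136, 128, 140 and 130 CPM in Het rep 1 to rep 5. At E18 the Setd1a level was 93.4, 95.6, 94.6, 85.4 and 100 CPM in WT and 104, 117, 96.9, 104 and 113 CPM in Het. The P7 libraries had a Setd1a level of 72.5, 76.2, 70.2, 70.7 and 71.3 CPM in WT and 81.9, 78.3, 76.4, 83.5 and 83.7 CPM in Het. Setd1a was not lower in Het at these ages, and at P7 every Het library lay above every WT library. The P35 libraries held Setd1a at 91.7, 82.4, 81.7, 84.6 and 85.2 CPM in WT and 91.9, 88.2, 88.3, 89.4 and 91.6 CPM in Het. At P70 the Setd1a level was 84.4, 88.7, 84.8, 81.6 and 92.0 CPM in WT and 82.0, 86.0, 81.5, 76.7 and 97.8 CPM in Het. The P70 mean was lower in Het, at 84.8 CPM against 86.3 CPM in WT, with overlapping libraries. Across ages Setd1a was higher in Het by 0.11 on the log2 scale (SE 0.03, adjusted p = 0.00616, edgeR). Counts over the whole gene do not check the genotype labels, because they include exons outside the deleted part and 52.27% of the exonic bases of Setd1a are shared with Gm49388 and 9430064I24Rik.

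Several libraries stood apart before any comparison. Xist, which is transcribed from the inactive X chromosome, had 60159 counts in E14 WT rep 5 and 55644 in E18 WT rep 2, against at most 27 in the other 48 libraries, although the methods state male animals. The summed level of the 8 genes was 649 CPM in P7 WT rep 2 and between 8.0 and 11.4 CPM in the other P7 libraries. It was 249 CPM in E18 WT rep 3 and 216 CPM in E18 WT rep 4, against 8.10 to 18.6 CPM in the other E18 libraries. Among adult libraries the highest sum was 45.2 CPM in P70 Het rep 3, followed by 16.2 CPM in P70 WT rep 4. The order was turned around at E14, where high sums were common and E14 WT rep 1, E14 Het rep 2 and E14 WT rep 2 were low at 13.9, 16.7 and 25.9 CPM, against 83.1 to 500.4 CPM in the other E14 libraries. Bulk libraries cannot tell fewer choroid cells from less RNA per choroid cell.

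**Figure D1:**
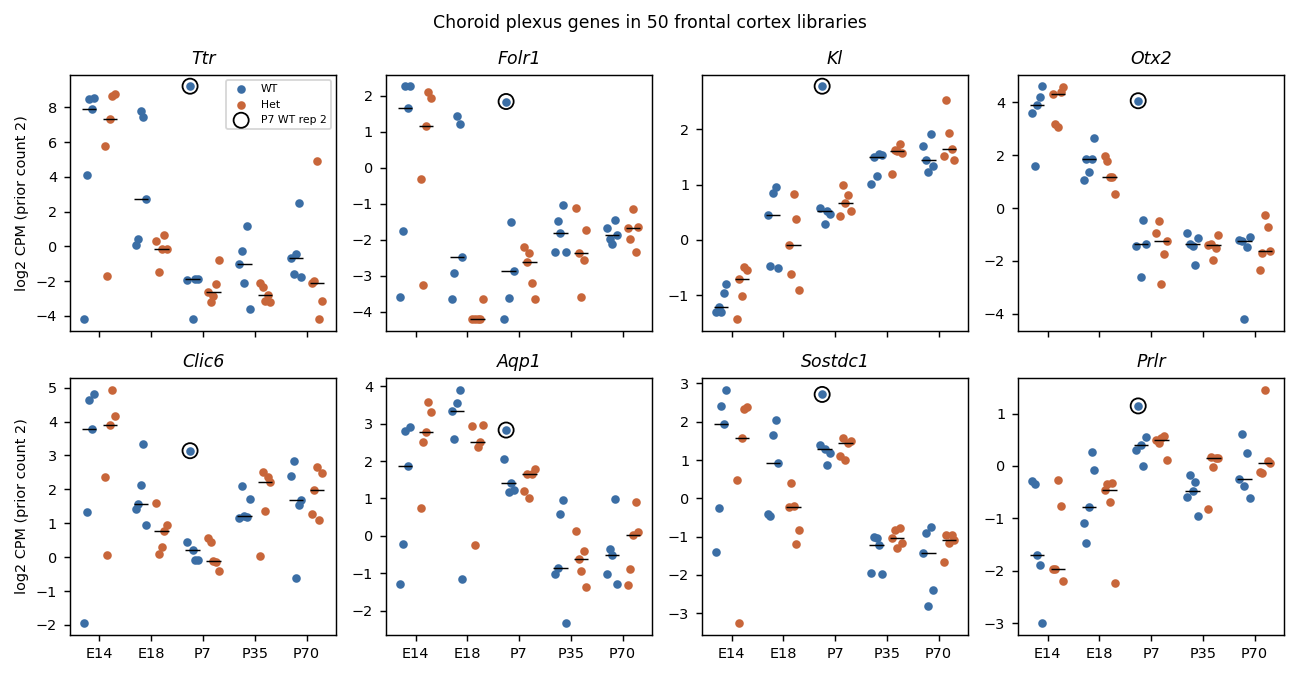
Level of each of the 8 genes in each of the 50 libraries, as log2 CPM with a prior count of 2, by age and genotype (WT blue, Het orange). Each point is 1 library, and horizontal lines are medians of all libraries of a group, P7 WT rep 2 included. P7 WT rep 2, which chose the genes, is ringed and lies above the other P7 libraries in all 8 panels.

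Otx2 (ENSMUSG00000021848, chromosome 14, 48657677 to 48673819, minus strand of GRCm38) encodes a homeodomain transcription factor needed to form and maintain choroid plexus epithelium. At E14 the Otx2 level was 11.9, 2.93, 14.9, 18.1 and 24.3 CPM in WT and 20.02, 8.98, 8.33, 20.6 and 23.6 CPM in Het, each in the order rep 1 to rep 5. Its E18 level was 2.01, 3.54, 2.51, 3.56 and 6.29 CPM in WT and 3.83, 3.398, 2.19, 2.20 and 1.38 CPM in Het. Every E14 library except WT rep 2 was above every E18 library, and the genotypes overlapped at both ages. At P7 Otx2 was at 0.313, 16.6, 0.111, 0.674 and 0.332 CPM in WT and 0.460, 0.663, 0.0836, 0.246 and 0.366 CPM in Het. The P7 level of WT rep 2 was within the E14 range, while the other 9 P7 libraries were under 1 CPM. From P35 to P70 the gene ranged between 0 and 0.791 CPM, with the highest level in P70 Het rep 3 and 0 counts in P70 WT rep 3, which allows up to 0.0891 CPM (3 counts; this limit and the interval given below cover counting error only). Of the exonic bases of Otx2, 3.98% are shared with Gm49154 and Otx2os1, and since the counting used no strand their reads cannot be told apart there.

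Because Otx2 is the transcription factor among these genes, their promoters were searched for TAATCC, the core bound by OTX2-type homeodomains, on both strands. RefSeq promoters (GRCm38.p6, 250 bases before to 50 after a start) were found for 4 of the 8 genes, namely Kl, Aqp1, Otx2 and Prlr, with 9 promoters between them. The motif was in 1 of these 9, at a start of Otx2 itself, and in 2320 of 32851 promoters of 300 bases (7.06%). That promoter is chr14:48665060-48665359 on the minus strand, and the promoter of Aqp1, chr6:55336049-55336348 on the plus strand, is set beside it as 1 without a match. Each is written 5′ to 3′ along the strand of its gene, with capitals marking the match, which reads as the reverse complement of TAATCC:
Otx2 promoter: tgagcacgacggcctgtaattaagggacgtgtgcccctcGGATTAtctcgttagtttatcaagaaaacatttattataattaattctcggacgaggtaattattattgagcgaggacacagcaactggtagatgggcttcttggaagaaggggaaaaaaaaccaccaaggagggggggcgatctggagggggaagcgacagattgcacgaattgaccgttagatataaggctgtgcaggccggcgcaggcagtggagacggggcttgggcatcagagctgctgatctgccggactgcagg
Aqp1 promoter: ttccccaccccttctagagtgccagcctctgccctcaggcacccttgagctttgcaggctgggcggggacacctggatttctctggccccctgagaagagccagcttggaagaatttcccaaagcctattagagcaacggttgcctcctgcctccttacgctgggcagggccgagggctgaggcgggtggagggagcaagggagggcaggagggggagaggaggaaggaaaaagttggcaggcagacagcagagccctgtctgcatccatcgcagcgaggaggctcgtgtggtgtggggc
A match is a description of letters, and binding was not measured.

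Ttr (ENSMUSG00000061808, chromosome 18, 20665280 to 20674321, plus strand) encodes transthyretin, the thyroid hormone and retinol carrier that choroid plexus secretes into cerebrospinal fluid. At E14 Ttr had 0, 647, 14016, 8766 and 15696 counts in WT rep 1 to rep 5 and 1873, 10, 6307, 16152 and 18838 counts in Het rep 1 to rep 5. The E14 libraries thus ran from 0 counts, which allows up to 0.0881 CPM, to 439 CPM in Het rep 5, with high and low libraries in each genotype. At E18 the Ttr counts were 38, 50, 8889, 7394 and 263 in WT and 46, 11, 31, 64 and 32 in Het. WT rep 3 and rep 4 were far above the other E18 libraries, WT rep 5 had 263 counts, and WT rep 1 and rep 2 lay within the range of the Het libraries. Ttr counts at P7 were 8, 24377, 0, 8 and 8 in WT and 4, 2, 3, 6 and 20 in Het. P7 WT rep 2 had the highest Ttr count of all 50 libraries, and the other P7 libraries of either genotype had between 0 and 20. The P35 level of Ttr was 0.437, 0.773, 0.173, 2.16 and 0.0289 CPM in WT and 0.178, 0.141, 0.0584, 0.0879 and 0.0557 CPM in Het. At P70 it was 0.582, 0.283, 0.683, 5.50 and 0.245 CPM in WT and 0.174, 0.201, 29.9, 0 and 0.0595 CPM in Het. Adult libraries were low, apart from P70 Het rep 3 and, at a lower level, P70 WT rep 4. The other 4 WT libraries at P70, at 9 to 23 counts, all lay above the other 4 Het libraries, at 0 to 7 counts. This sets aside the highest library of each genotype by its Ttr level and was not tested.

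Sostdc1 (ENSMUSG00000036169, chromosome 12, 36314139 to 36318452, plus strand) encodes a secreted antagonist of BMP and Wnt signals. The Sostdc1 level at E14 was 0.323, 0.786, 5.24, 3.76 and 7.07 CPM in WT and 1.35, 0.0506, 2.93, 4.98 and 5.198 CPM in Het. At E18 it was 0.706, 0.666, 3.08, 4.09 and 1.85 CPM in WT and 0.808, 1.28, 0.813, 0.383 and 0.506 CPM in Het. The libraries low for Ttr at E14 were also low here, and at E18 the WT libraries rep 3, rep 4 and rep 5 were above every Het library. Sostdc1 at P7 was at 2.56, 6.499, 2.41, 1.78 and 2.21 CPM in WT and 2.08, 2.90, 1.95, 2.65 and 2.75 CPM in Het. Apart from WT rep 2, the P7 libraries lay in a narrow range of 1.78 to 2.90 CPM in which the genotypes overlapped, and this level was present in libraries with few Ttr counts. At P35 and P70 the level of Sostdc1 was between 0.0891 and 0.536 CPM, below every P7 library.

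Folr1 (ENSMUSG00000001827, chromosome 7, 101858331 to 101870788, minus strand) encodes folate receptor alpha, through which choroid plexus takes folate into cerebrospinal fluid. At E14 the Folr1 level was 0.0294, 0.244, 4.76, 3.08 and 4.75 CPM in WT and 0.747, 0.0506, 2.18, 4.22 and 3.78 CPM in Het. The E18 counts of Folr1 were 1, 3, 106, 94 and 5 in WT and 0, 0, 0, 0 and 1 in Het. The high and low libraries were those of Ttr, and 4 of the 5 E18 Het libraries had no count, which allows 0.0718 to 0.0815 CPM in them. P7 Folr1 counts were 0, 144, 1, 11 and 3 in WT and 6, 4, 5, 2 and 1 in Het. Only WT rep 2 was above 11 counts at P7. At P35 and P70 Folr1 had between 1 and 16 counts in every library, and P70 Het rep 3, with 1060 Ttr counts, had 14 Folr1 counts, against 5 to 11 in the other P70 libraries.

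Aqp1 (ENSMUSG00000004655, chromosome 6, 55336432 to 55348555, plus strand) encodes a water channel of the apical membrane of choroid plexus epithelium, and it is also known in some endothelial and red blood cells. Aqp1 at E14 was at 0.352, 0.813, 6.93, 3.57 and 7.47 CPM in WT and 1.64, 5.64, 6.80, 12.0 and 9.98 CPM in Het. At E18 Aqp1 was at 10.1, 6.00, 11.7, 14.9 and 0.399 CPM in WT and 7.63, 0.788, 5.15, 5.62 and 7.80 CPM in Het. E14 Het rep 2, with 10 Ttr counts, had 5.64 CPM of Aqp1, and E18 libraries with few Ttr counts reached 10.1 CPM, so high Aqp1 was not limited to libraries with high Ttr. The P7 level of Aqp1 was 4.12, 7.06, 2.18, 2.61 and 2.29 CPM in WT and 2.25, 3.09, 1.95, 3.12 and 3.38 CPM in Het. WT rep 2 was again the highest P7 library, and the other 9 lay between 1.95 and 4.12 CPM with overlapping genotypes. At P35 and P70 Aqp1 was between 0.144 and 1.92 CPM.

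Clic6 (ENSMUSG00000022949, chromosome 16, 92485736 to 92541243, plus strand) encodes a protein of the chloride intracellular channel family. The E14 level of Clic6 was 0.206, 2.47, 24.9, 13.7 and 27.9 CPM in WT and 5.06, 0.986, 14.8, 30.5 and 17.97 CPM in Het. Clic6 at E18 was at 2.61, 2.92, 4.34, 10.1 and 1.87 CPM in WT and 2.97, 1.01, 1.16, 1.65 and 1.86 CPM in Het. E18 WT rep 4 was the highest E18 library, rep 3 followed, and the remaining WT libraries overlapped the Het libraries. At P7 the Clic6 level was 1.31, 8.75, 1.11, 0.890 and 0.884 CPM in WT and 1.43, 1.30, 0.864, 0.848 and 0.706 CPM in Het. It was 0.965 to 5.62 CPM at P35 and 0.594 to 7.15 CPM at P70, where some libraries with few Ttr counts had more Clic6 than any P7 library but WT rep 2.

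Kl (ENSMUSG00000058488, chromosome 5, 150952607 to 150993817, plus strand) encodes klotho, a co-receptor for FGF23 that is abundant in choroid plexus and kidney and is also found in neurons. At E14 Kl was at 0.316 to 0.657 CPM and at E18 at 0.479 to 1.88 CPM, with its highest E18 levels in WT rep 4 and WT rep 3. At P7 it was at 1.16 to 1.93 CPM in 9 libraries and at 6.79 CPM in WT rep 2, the highest level of Kl in the 50 libraries. It was at 1.95 to 3.28 CPM at P35 and at 2.29 to 5.68 CPM at P70, where Het rep 2 was highest, and genotypes overlapped at every age. The median level of Kl was lowest at E14, the age at which the median of Ttr was highest.

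Prlr (ENSMUSG00000005268, chromosome 15, 10177238 to 10349180, plus strand) encodes the prolactin receptor, by which choroid plexus is thought to carry prolactin into the brain. Prlr ranged from 0.0709 to 0.778 CPM in E14 libraries, 0.160 to 1.16 CPM in E18 libraries, 0.944 to 1.42 CPM at P7 without WT rep 2, 0.462 to 1.07 CPM at P35 and 0.5997 to 2.68 CPM at P70. The highest Prlr level of all was that of P70 Het rep 3, followed by the 2.16 CPM of P7 WT rep 2. Of its exonic bases, 1.32% are shared with Gm21973.

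Levels can be set beside each other across genes only per length, here as CPM per kilobase of exon (RPKM). At E14 the median RPKM was 169 for Ttr, 3.91 for Otx2, 3.64 for Clic6, 2.37 for Aqp1, 1.88 for Sostdc1, 1.15 for Folr1, 0.0483 for Kl and 0.0153 for Prlr. Each pair of neighbours in this order overlapped in range over the 10 libraries, Ttr and Otx2 included, because E14 WT rep 1 and E14 Het rep 2 had almost no Ttr. At P70 the median RPKM was 0.906 for Clic6, 0.315 for Kl, 0.264 for Aqp1, 0.228 for Sostdc1, 0.223 for Ttr, 0.104 for Folr1, 0.0803 for Otx2 and 0.0604 for Prlr. Ttr thus moved from the highest of the 8 medians to the middle of the order, with ranges at P70 that overlapped between each pair of neighbours.

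In P7 WT rep 2, Ttr was 3704-fold above the mean of the other 4 P7 WT libraries (598 CPM against 0.161 ± 0.108, SD, n = 4). Otx2 was 46.4-fold, Folr1 34.7-fold, Clic6 8.37-fold, Kl 5.13-fold, Sostdc1 2.90-fold, Aqp1 2.52-fold and Prlr 1.80-fold above. These folds span the values that chose the genes and are given without a test. The genes did not rise by a common factor: Ttr had few counts in other P7 libraries, whereas Aqp1, Sostdc1 and Prlr had at least 0.944 CPM there in every library.

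Counts per 1000 Ttr counts show how the mixture of the 8 genes differed between the libraries with 1000 or more Ttr counts. Folr1 had 8.60 to 13.9 counts per 1000 Ttr counts in the 7 such E14 libraries, 11.9 and 12.7 in E18 WT rep 3 and rep 4, 13.2 in P70 Het rep 3 and 5.91 in P7 WT rep 2. Sostdc1 per 1000 Ttr counts was 11.8 to 25.1 at E14, 13.8 and 23.0 in the E18 libraries, 13.2 in P70 Het rep 3 and 10.9 in P7 WT rep 2. For these genes the ratio to Ttr was lower in P7 WT rep 2 than in any of the other 10 libraries. Otx2 per 1000 Ttr counts was 42.2 to 372 at E14, 11.3 and 20.02 in E18 WT rep 3 and rep 4, 27.7 in P7 WT rep 2 and 26.4 in P70 Het rep 3. Aqp1 had its highest ratios in E18 WT rep 3 and rep 4, at 52.6 and 84.0 counts per 1000 Ttr counts, against 15.1 to 41.5 at E14 and 11.8 in P7 WT rep 2. Kl and Prlr in P70 Het rep 3 had 125 and 89.6 counts per 1000 Ttr counts, at Kl levels that P70 libraries with few Ttr counts also had.

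**Figure D2:**
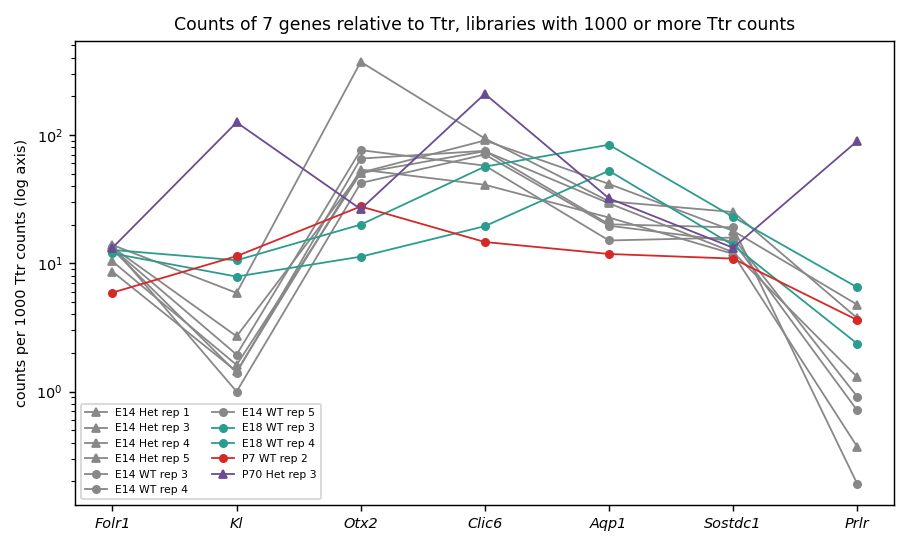
Counts of Folr1, Kl, Otx2, Clic6, Aqp1, Sostdc1 and Prlr per 1000 Ttr counts (log axis) in each library with 1000 or more Ttr counts, 1 line per library (circles WT, triangles Het, coloured by age). Folr1 and Sostdc1 lie close together in these libraries, while Otx2 runs from 11.3 to 372 and Kl from 0.999 to 125.

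Genotype was compared across ages to ask whether these genes differ in Setd1a+/- cortex. Across ages, with age as a covariate, 0 of the 8 genes were called by edgeR's quasi-likelihood test at an adjusted p under 0.05, against 715 of 16330 tested genes (4.38%). None of the 8 had an unadjusted p under 0.05 with edgeR, DESeq2 or limma-voom, and none was called by DESeq2 or limma-voom. The smallest unadjusted p was 0.0691, for Folr1, whose log2 fold change of Het over WT was -0.91 (SE 0.49). For Ttr it was -1.003 (SE 0.88), and for Aqp1, Otx2, Clic6, Kl, Prlr and Sostdc1 it lay between -0.25 and 0.17. Over the alternatives other than leaving out single libraries, the log2 fold change of Ttr ran from -2.57 to 0.376, so its direction turned. That of Folr1 ran from -1.36 to -0.270.

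At E18, 2 of the 8 genes, Folr1 and Ttr, were called for genotype, against 49 of 16330 tested genes (0.3%). The levels of both overlapped between WT and Het libraries and were highest in WT rep 3 and WT rep 4. Folr1 fell by 6.91 on the log2 scale (SE 1.51, adjusted p = 0.0324, edgeR) and Ttr fell by 6.41 (SE 1.48, adjusted p = 0.0456, edgeR). For Folr1 the Het group held 1 count against 209 in WT, a WT to Het ratio of 201 with a 95% exact (Clopper-Pearson) counting interval of 35.7 to 7989, so its fitted change depends on the prior count. Both calls depended on which libraries were fitted. Without WT rep 3 and WT rep 4 together, an alternative chosen after the data were seen, the log2 fold change was -3.21 for Folr1 (adjusted p = 0.752, edgeR) and -1.63 for Ttr (adjusted p = 0.839, edgeR), and no gene of the 8 was called or had an unadjusted p under 0.05. Leaving out 1 library changed the folds less. Without WT rep 3 alone the log2 fold change was -6.20 for Folr1 (adjusted p = 0.0885, edgeR) and -5.61 for Ttr (adjusted p = 0.0956, edgeR), and without WT rep 4 alone it was -6.40 (adjusted p = 0.110) and -5.92 (adjusted p = 0.118). Both calls were also lost without any 1 of Het rep 2 to rep 5, at log2 fold changes of -6.685 to -8.26 for Folr1 (adjusted p of 0.0642 to 0.107) and -6.20 to -6.67 for Ttr (adjusted p of 0.0698 to 0.143). With the replicate number as a block the call of Ttr was lost (-5.63, adjusted p = 0.0715, edgeR). Limma-voom called neither gene, with adjusted p of 0.389 for Folr1 and 0.788 for Ttr, whereas DESeq2 called 2 of the 8.

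The other 6 genes at E18 included Sostdc1 at a log2 fold change of -1.46 (SE 0.58, unadjusted p 0.0157, adjusted p = 0.254, edgeR) and Clic6 at -1.33 (SE 0.68, adjusted p = 0.405, edgeR). The WT libraries rep 3 and rep 4 were also high for these genes. Otx2, Aqp1, Kl and Prlr lay between -0.68 and -0.20. The median log2 fold change of the 8 genes at E18 was -1.004, and that of all tested genes was 0.02.

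At the other ages no gene of the 8 was called by edgeR. The E14 count was 0 against 27 of 16330 (0.165%), the P7 count 0 against 7 (0.0429%), the P35 count 0 against 5 (0.0306%) and the P70 count 0 against 39 (0.239%). Without the 2 libraries with Xist counts the E14 count was 0 against 1164. At these 4 ages none of the 8 had an unadjusted p under 0.05 with edgeR, DESeq2 or limma-voom, and neither of the latter tools called any. For Ttr the log2 fold change was 0.12 for the E14 libraries (SE 1.02), 0.23 for P7 (SE 4.45), -2.71 for P35 (SE 3.502) and 2.07 for P70 (SE 1.48), with errors that leave room for large differences in either direction. At P70 the direction for Ttr was set by Het rep 3, without which the log2 fold change was -3.70 (SE 2.96, adjusted p = 1, edgeR), and with limma-voom it was -1.38. The median was 0.582 CPM in WT and 0.174 CPM in Het. With P7 WT rep 2 put back into the P7 comparison, 2 of the 8 genes were called, Ttr and Otx2, which repeats the choice of the genes and is no finding.

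Whether the genotype effect differed between ages was tested by the age by genotype interaction. With edgeR 0 of the 8 genes were called, against 1 of 16330 tested genes (0.00612%), and 2 of the 8 had an unadjusted p under 0.05, Ttr at 0.00246 (adjusted p = 0.435) and Folr1 at 0.00585 (adjusted p = 0.489). DESeq2 called 1 of the 8, Folr1, and limma-voom 0, with 2 and 0 genes at an unadjusted p under 0.05.

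Most of the 8 genes were called in each step between consecutive ages up to P35, as were most of all tested genes. Embryonic dissections were of frontal brain regions and postnatal ones of frontal cortex. Age and dissection therefore cannot be told apart from E18 to P7. From E14 to E18, over both genotypes, 7 of the 8 were called by edgeR, against 12095 of 16330 tested genes (74.1%), so that the members' share is near that of all genes. Folr1 fell by 4.66 on the log2 scale (SE 0.82, adjusted p = 2.51e-06), Ttr fell by 4.53 (SE 0.92, adjusted p = 2.71e-05), Clic6 fell by 2.33 (SE 0.47), Otx2 fell by 2.33 (SE 0.28) and Sostdc1 fell by 1.34 (SE 0.39). Kl rose by 1.25 (SE 0.20) and Prlr rose by 0.67 (SE 0.31, adjusted p = 0.0496, edgeR), while Aqp1 was not called (0.37, SE 0.42). The Prlr call was lost when any 1 of 36 of the 49 libraries was left out, with an adjusted p of 0.134 (edgeR) without E18 WT rep 4. Without E18 WT rep 3 and rep 4 together the falls were larger, at -6.92 for Ttr and -6.51 for Folr1. Limma-voom did not call Ttr (-3.52, adjusted p = 0.231) or Sostdc1 (-0.749, adjusted p = 0.21) in this step.

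From E18 to P7, 6 of the 8 were called against 12499 of 16330 (76.5%). Ttr fell by 5.64 on the log2 scale (SE 1.80), Otx2 fell by 3.07 (SE 0.36), Clic6 fell by 1.41 (SE 0.54) and Aqp1 fell by 1.30 (SE 0.45). Prlr rose by 1.00 (SE 0.29) and Sostdc1 rose by 0.90 (SE 0.41, adjusted p = 0.0427, edgeR). The Sostdc1 call was lost when any 1 of 13 of the 49 libraries was left out (adjusted p of at most 0.0766, edgeR). Kl (0.37, SE 0.19) and Folr1 (0.12, SE 0.52) were not called. Without E18 WT rep 3 and rep 4 the fall of Otx2 was still called. Those of 3 other genes were smaller and not called, at -3.24 for Ttr (adjusted p = 0.0929, edgeR), -0.993 for Clic6 (adjusted p = 0.105, edgeR) and -0.970 for Aqp1 (adjusted p = 0.0606, edgeR). Limma-voom did not call Ttr, Clic6, Aqp1 or Sostdc1 in this step.

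From P7 to P35, 5 of the 8 were called against 12498 of 16330 (76.5%). Sostdc1 fell by 2.61 on the log2 scale (SE 0.45), Aqp1 fell by 1.89 (SE 0.50) and Prlr fell by 0.67 (SE 0.29), while Clic6 rose by 1.65 (SE 0.53) and Kl rose by 0.90 (SE 0.19). Limma-voom did not call Clic6 (1.52, adjusted p = 0.173). Ttr (0.65, SE 3.13), Folr1 (1.12, SE 0.86) and Otx2 (-0.13, SE 0.44) were not called. From P35 to P70 edgeR called 0 of the 8 against 1923 of 16330 (11.8%), with 1 gene at an unadjusted p under 0.05, Ttr (3.42, SE 1.67, adjusted p = 0.186). DESeq2 called 1 of the 8 for that step, Ttr, and limma-voom 0, with none at an unadjusted p under 0.05. Ttr was at 29.9 CPM in P70 Het rep 3 and at 0 to 5.50 CPM in the other 9 P70 libraries, and without P70 Het rep 3 its log2 fold change was 0.534 (SE 2.83, adjusted p = 0.945, edgeR).

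**Figure D3:**
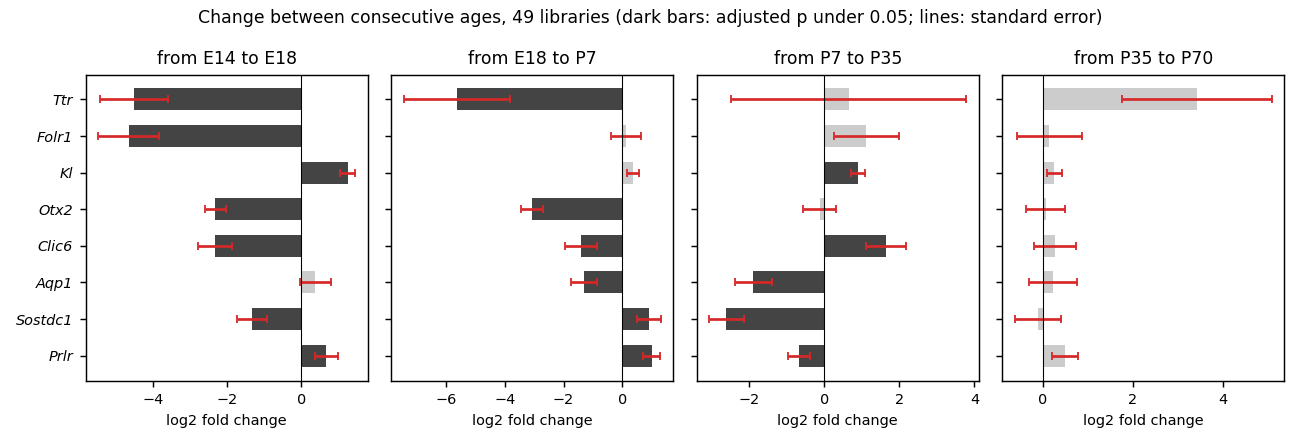
Log2 fold change of each of the 8 genes between consecutive ages, over WT and Het in 49 libraries, with lines for the standard error and dark bars for an adjusted p under 0.05. Within the step from E14 to E18 the falls were largest for Folr1, Ttr, Clic6 and Otx2, and Kl and Prlr rose, by 1.25 and 0.67. Ttr and Otx2 fell more from E18 to P7 (-5.64 and -3.07) than from E14 to E18 (-4.53 and -2.33). For Ttr the standard errors were 1.80 and 0.92. Its order turned without E18 WT rep 3 and rep 4 together, at -3.24 from E18 to P7 and -6.92 from E14 to E18. The difference between the steps was not tested.

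The genes varied together between libraries of the same age and genotype to unequal degrees. For each gene the deviation of log2 CPM (prior count of 2) from its group mean was set against that of Ttr over 49 libraries, which gives 7 relations, and 1e-05 is the smallest p that the permutations within groups can give. The Folr1 deviation followed that of Ttr with Pearson's r = 0.83 (permutation p = 1e-05, adjusted p = 7e-05) and Spearman's rho = 0.71 (permutation p = 3e-05, adjusted p = 0.00021). For Sostdc1 the values were r = 0.77 (permutation p = 4e-05, adjusted p = 0.00014) and rho = 0.56 (permutation p = 0.00093, adjusted p = 0.00217). Clic6 had r = 0.71 (permutation p = 0.00039, adjusted p = 0.00091) and rho = 0.50 (permutation p = 0.00195, adjusted p = 0.00341). Aqp1 had r = 0.50 (permutation p = 0.00599, adjusted p = 0.0105) and rho = 0.54 (permutation p = 0.00067, adjusted p = 0.00217), below Clic6 by r and above it by rho. For Kl r was 0.32 (permutation p = 0.0461, adjusted p = 0.0645) and rho was 0.41 (permutation p = 0.0126, adjusted p = 0.0176), so that its relation passed only by rank. Otx2 had r = 0.23 (permutation p = 0.205, adjusted p = 0.239) and rho = 0.20 (permutation p = 0.201, adjusted p = 0.235), and Prlr had r = 0.04 (permutation p = 0.873, adjusted p = 0.873) and rho = 0.13 (permutation p = 0.461, adjusted p = 0.461).

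The libraries farthest from the median Ttr deviation were E14 WT rep 1 and E14 Het rep 2. Without them r with Ttr was 0.73 for Folr1, 0.62 for Sostdc1, 0.48 for Clic6, 0.46 for Aqp1, 0.41 for Kl, 0.23 for Otx2 and 0.18 for Prlr. Within ages, in the order from E14 to P70, r for Folr1 was 0.96, 0.96, -0.09, 0.53 and 0.81. Sostdc1 had r of 0.94, 0.74, 0.01, 0.49 and 0.15 at these ages in turn, and Clic6 0.98, 0.68, -0.52, -0.17 and 0.19. For these 3 genes r was highest at E14 and E18, that of Folr1 was also high at P70, and at P7, where Ttr had 20 counts or fewer in each of the 9 libraries, r was near 0 or negative. For Aqp1 the values were 0.72, 0.36, 0.50, 0.68 and 0.21 in turn. Kl had 0.27, 0.56, 0.00, 0.03 and 0.38, Otx2 had 0.41, -0.02, 0.41, -0.51 and 0.24, and Prlr had -0.35, 0.40, -0.51, 0.32 and 0.74, so that the sign was not the same at every age for Otx2 and Prlr.

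**Figure D4:**
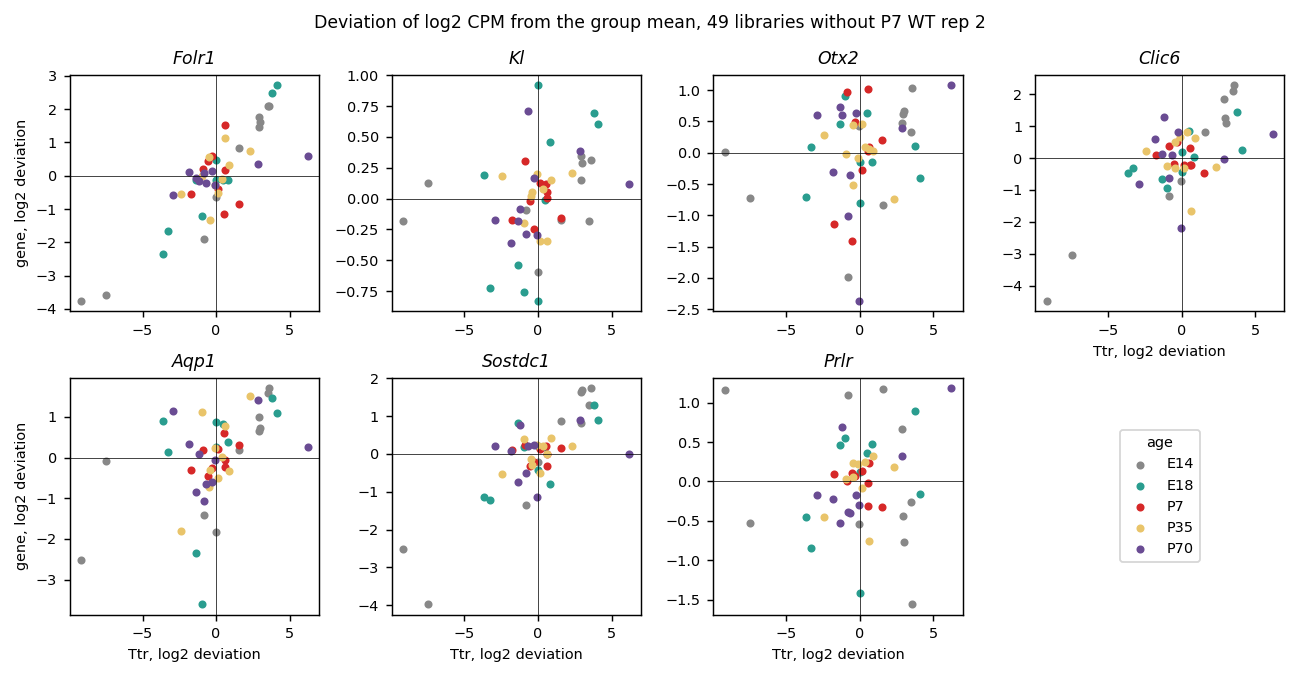
Deviation of log2 CPM from the group mean for each of 7 genes (vertical axes) against that of Ttr (horizontal axes) in 49 libraries, 1 point per library, coloured by age. Folr1, Sostdc1 and Clic6 lie along a line set mainly by the E14 and E18 points (r = 0.83, 0.77 and 0.71), and Otx2 and Prlr do not (r = 0.23 and 0.04).

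The 12 other tested protein-coding genes whose deviations were most like the mean of the 8 genes' standardised deviations, over the same 49 libraries, were Calml4 (r = 0.88), Krt18 (r = 0.84), Htr2c (r = 0.84), Tmem72 (r = 0.83), Slco1a4 (r = 0.83), Prr32 (r = 0.82), Cfap43 (r = 0.82), Dnah6 (r = 0.81), Defb11 (r = 0.80), Car12 (r = 0.80), Slc4a5 (r = 0.80) and Kcne2 (r = 0.78). Of these, 7 were on the lists of other choroid plexus genes used here: Calml4, Krt18, Htr2c, Tmem72, Car12, Slc4a5 and Kcne2. Htr2c encodes a serotonin receptor and Kcne2 a potassium channel subunit, while Cfap43 and Dnah6 encode proteins of motile cilia.

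Other choroid plexus genes were described from lists of 13 transport genes, 10 genes of secreted proteins and matrix, and 12 genes of epithelium and its regulators. In P7 WT rep 2 they were at least 2-fold above the mean of the other P7 WT libraries in 7 of 13, 7 of 10 and 8 of 12 genes, against 6.58% of all tested genes, with median log2 differences of 1.30, 1.26 and 1.34 against 0.01 for all genes. Their summed levels in that library were 319, 408 and 119 CPM. The most abundant of them per length, Slc29a4, Igfbp2 and Rdh5, are also expressed in libraries with few Ttr counts, and in P7 WT rep 2 their log2 differences were -0.53, 0.29 and 0.74. In E18 WT rep 3 the lists had 4 of 13, 4 of 10 and 4 of 12 genes at least 2-fold higher than in the rest of the group, against 2.01% of all tested genes, and in E18 WT rep 4 they had 5 of 13, 5 of 10 and 6 of 12, against 3.58%. In P70 Het rep 3 they had 1 of 13, 0 of 10 and 3 of 12, against 0.888%. For genotype at E18 the smallest adjusted p in these lists was 0.0848, for F5 (log2 fold change -2.34, edgeR). Across ages the calls were 1 of 13, 0 of 10 and 1 of 12 in these lists, against 4.38% of all tested genes. They were Slc4a2 (-0.11, adjusted p = 0.023, edgeR) and Rdh5 (-0.15, adjusted p = 0.0045, edgeR).

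Markers of other tissues moved with the 8 genes in some of these libraries. In P7 WT rep 2, 8 of 10 ependymal and ciliated genes were at least 2-fold higher (summed level 43.1 CPM, against 15.2 to 27.6 CPM in the other P7 libraries), and none of the list was at 0. Rarres2, the most abundant of the list per length, was not among the 8 (11.5 CPM, log2 difference 0.27). At least 2-fold higher were also 5 of 10 thalamus genes (303.5 CPM), 4 of 8 genes of cortical hem and Cajal-Retzius cells and 3 of 6 hippocampus genes. Of the astrocyte genes, Aqp4 (316 CPM, log2 difference 1.28) and Gfap (252 CPM, 1.32) were too, and Gja1, Slc1a3 and Aldh1l1 were not. Of the 9 genes of cortical excitatory neurons, 3 were at least 2-fold lower, with a median log2 difference of -0.87, and of the 10 leptomeningeal fibroblast genes 0 were 2-fold higher or lower (573 CPM). The 12 tested protein-coding genes with the largest difference of this library from the other P7 WT libraries, leaving out the 8 genes, were Uncx, En2, Barhl1, Mab21l2, Skor1, Pax2, Nhlh1, Prdm13, Skor2, Cnpy1, Irx5 and Lhx1, with log2 differences from 9.26 to 6.43. En2 had 2227 counts in it and 0 to 6 in the other P7 WT libraries, and Barhl1 had 3456 and 1 to 16. En2, Pax2, Skor2 and Lhx1 are known from the developing midbrain, hindbrain and cerebellum. A list of 8 cerebellum and hindbrain genes (En1, Atoh1, Pcp2, Car8, Cbln1, Cbln3, Gabra6 and Zic1), chosen after these values were seen, summed to 978 CPM in P7 WT rep 2 and to 124 to 160 CPM in the other P7 libraries. Its most abundant gene by count was Zic1 with 22986, Gabra6 had 382 counts and none in the other P7 WT libraries, and none of the 8 was at 0 in P7 WT rep 2.

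In E18 WT rep 3 and rep 4, by contrast, 6 of 10 and 4 of 10 leptomeningeal fibroblast genes were at least 2-fold higher than in the rest of the group, and Igf2, the most abundant per length, was at 453 and 383 CPM (log2 differences of 1.26 and 0.952). E18 WT rep 1 had 1015 CPM of this list, above the 983 and 875 CPM of rep 3 and rep 4, with 38 Ttr counts. Ependymal and ciliated genes were 2-fold higher for 6 of 10 in rep 4 and for 0 of 10 in rep 3, where 1 of the list was at 0. Of the tested hypothalamus genes 3 of 6 were at least 2-fold higher in rep 4 and 0 in rep 3, and of the endothelial genes 0 of 5 in rep 4 and 2 of 5 in rep 3. Cortical hem and Cajal-Retzius, erythroid and astrocyte genes were at least 2-fold higher for 2 of 8, 2 of 5 and 2 of 5 in rep 4 and for 0 in rep 3. In rep 3 Wnt3a and Wnt8b of the cortical hem list were at least 2-fold lower (log2 differences of -1.79 and -2.90). So were Otp of the hypothalamus list (-2.33) and Meig1 of the ependymal list (-1.49). The added cerebellum and hindbrain list summed to 216 and 153 CPM in these libraries, within or below the 186 to 311 CPM of the other E18 libraries. For genotype at E18, 1 of 8 genes of cortical hem and Cajal-Retzius cells (Wnt8b, -6.46, adjusted p = 0.0181, edgeR) and 1 of 10 thalamus genes (Lhx9, -1.70, adjusted p = 0.0122, edgeR), both named after their values were seen, were called lower in Het, and 0 of 10 ependymal and ciliated and 0 of 10 leptomeningeal fibroblast genes were called. Wnt8b and Lhx9 were lower than in the rest of the group in E18 WT rep 3 (log2 differences of -2.90 and -1.58). In E18 WT rep 4 they were higher (3.98 and 1.93). The part of any of these tissues in the genotype difference of Ttr and Folr1 at E18 was not tested.

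The E14 libraries with little Ttr were not alike. E14 WT rep 1 had 0 Ttr counts, 405 Otx2 counts, 8 of 10 leptomeningeal fibroblast genes at least 2-fold lower (50.7 CPM in sum) and 4 of 6 tested hypothalamus genes at least 2-fold higher (163.2 CPM). E14 Het rep 2 had 10 Ttr counts, 355 Otx2 counts, 8 of 10 leptomeningeal fibroblast genes at least 2-fold higher (1491 CPM) and 5 of 5 endothelial genes at least 2-fold higher (507 CPM). E14 WT rep 2 had 647 Ttr counts, 108 Otx2 counts and 7 of 10 leptomeningeal fibroblast genes at least 2-fold lower (80.8 CPM). Otx2 was thus present at more than 100 counts in each of the 3 libraries. Of all tested genes, 2.81% were at least 2-fold lower and 1.32% at least 2-fold higher in E14 WT rep 1. In E14 Het rep 2 the share at least 2-fold higher was 6.25%, and in E14 WT rep 2 the share at least 2-fold lower was 3.01%. In P70 Het rep 3, 5 of 10 striatum genes were at least 2-fold higher (1714 CPM), and ependymal and ciliated genes were for 3 of 10.

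**Figure D5:**
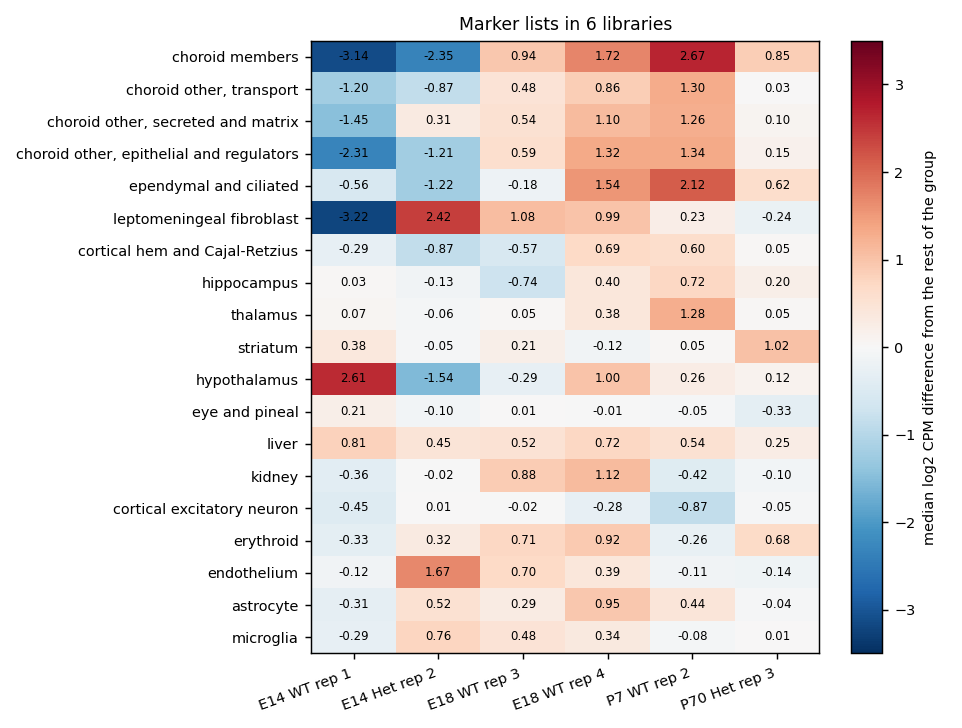
Median log2 CPM difference of each marker list (rows) from the rest of its group in 6 libraries (columns), from blue (lower) to red (higher), with the value in each cell. The 8 choroid genes are lower in E14 WT rep 1 and E14 Het rep 2 and higher in E18 WT rep 3, E18 WT rep 4, P7 WT rep 2 and P70 Het rep 3, and leptomeningeal fibroblast genes run from -3.22 in E14 WT rep 1 to 2.42 in E14 Het rep 2.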

How the data were processed

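RNA was sequenced from 50 frontal cortex libraries, 5 per age and genotype. The authors trimmed reads with Trimmomatic, aligned them to GRCm38 with STAR and counted fragments per gene with featureCounts 1.4.6-p2 without using strand, and the deposited values are raw counts, with no normalization by the authors. Genes were named from GENCODE vM21, whose chromosomes hold 55141 of the 55487 genes in the tables. Protein-coding genes with the equivalent of 10 counts in at least 5 libraries were tested with edgeR 4.0.16 (R 4.3.3) after TMM scaling, by the quasi-likelihood method, in 49 libraries without P7 WT rep 2. P-values were adjusted by the Benjamini-Hochberg method over all 16330 tested genes, and a gene was called when its adjusted p was under 0.05. CPM and RPKM use TMM-scaled library sizes, and RPKM the exonic length in the tables. Permutation tests drew 100000 resamples within groups, two-sided. The models were tested on simulated data.

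The members and lists were chosen with earlier results of these data known. Genes named besides the 8 were those of the fixed marker lists (counts and the 2 most abundant), the 12 tested genes most like the 8 across libraries, the 12 tested genes with the largest difference in P7 WT rep 2, and Setd1a; other names were chosen after their values were seen. Alternatives were all 50 libraries, leaving out libraries, other scalings, DESeq2 1.42.0, limma-voom (limma 3.58.1), other filters, all gene types and a replicate block. The fit without E18 WT rep 3 and rep 4 together and the cerebellum and hindbrain list were added after seeing the data. A first fit, whose results were seen, included genes of unplaced scaffolds (16336 tested), and the set was changed afterwards to genes on chromosomes, partly because this gave the number of tested genes known from earlier results of these data; the first set is kept as an added alternative. With totals of 35507165 to 43907318 counts, counting error is small for Ttr where it is abundant, and not for genes with few counts. RIN values, proteomics and human data of the study were not used here.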

Additional observations from a re-analysis of the deposited data

Results flagged for a closer look

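Each of the 8 genes was examined in each group of 5 libraries for a library whose distance to its nearest neighbour was more than 0.71 of the whole range of the group, on the scale of log2 CPM with a prior count of 2. For independent normal values chance gives about 1 in 20 such groups. Some values here lie at or near 0 counts and some of the 8 genes vary together, so this rate cannot be taken to hold. Outside the P7 WT group 72 groups of a gene were tested, and 10 results were found. P7 WT rep 2, the library that chose the genes, is described and not set against chance. It passed the limit of 0.71 for 4 genes. It did not for Otx2 and Folr1, although it was 46.4-fold and 34.7-fold above the mean of the other P7 WT libraries there. For Ttr it was the highest (0.825 of the range; 9.22 against -4.21 to -1.86 in the others). So it was for Kl (0.882 of the range; 2.78 against 0.28 to 0.58 in the others). Clic6 was highest there too (0.834 of the range; 3.14 against -0.09 to 0.44 in the others). The same held for Sostdc1 (0.722 of the range; 2.71 against 0.87 to 1.39 in the others).

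Ttr was far lower in E14 Het rep 2 than in the rest of its group (0.711 of the range; -1.70 against 5.75 to 8.78 in the others). In P70 Het rep 3 it was far higher (0.755 of the range; 4.91 against -4.21 to -1.97 in the others). Prlr was also far higher in P70 Het rep 3 (0.854 of the range; 1.45 against -0.13 to 0.10 in the others). Folr1 in E18 Het rep 5 stood above a group at 0 (1 of the range; -3.63 against -4.21 in each of the others). This library had 1 Folr1 count and the others had 0, so the difference is within counting error. The ties at 0 fix the ratio at 1, so the chance rate given above does not apply to this result, although it is counted there. Otx2 was lowest in P70 WT rep 3, with 0 counts (0.889 of the range; -4.21 against -1.46 to -1.11 in the others).

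Aqp1 was far lower in E18 WT rep 5 (0.741 of the range; -1.14 against 2.60 to 3.91 in the others). E18 Het rep 2 was low for Aqp1 as well (0.815 of the range; -0.25 against 2.38 to 2.97 in the others). Prlr was lowest in E18 Het rep 5 (0.814 of the range; -2.23 against -0.68 to -0.33 in the others). It was lowest in P35 Het rep 1 at that age (0.811 of the range; -0.83 against -0.02 to 0.17 in the others). Among P7 Het libraries Prlr was lowest in rep 5 (0.723 of the range; 0.10 against 0.44 to 0.56 in the others). That library had 39 Prlr counts and the others had 47 to 52, so counting error is not small beside this gap. What set these libraries apart was not tested.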

How the results depend on the processing

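The members' counts for genotype across ages, and at E14, P35 and P70, were 0 in every alternative run. Across ages 2 of the 8 had an unadjusted p under 0.05 (edgeR) with all 50 libraries, which include the library that chose the genes. Without E18 WT rep 3 and rep 4 together 1 of the 8 had, and at E14 1 had with the replicate block. For genotype at E18 the 2 calls, Folr1 and Ttr, became 0 with all 50 libraries, 0 with limma-voom and 0 without E18 WT rep 3 and rep 4 together (added after seeing the data). They became 1 with a minimum of 10 CPM in 5 libraries, where 4 of the 8 genes were tested. For the interaction DESeq2 called 1. At P7 all 50 libraries gave 2, through the library that chose the genes. From E14 to E18 and from P7 to P35 the 10 CPM minimum gave 3 and 2, again of 4 tested genes. Limma-voom lost Ttr (adjusted p = 0.231) and Sostdc1 (0.21) from E14 to E18 and Clic6 (0.173) from P7 to P35, where all 50 libraries lost Kl (0.0762) and Clic6 (0.0889) and gained Otx2 (0.0101). From E14 to E18 the call of Prlr was lost with all 50 libraries (0.0528), without the 2 libraries with Xist counts (0.0588), with every gene with any count (0.0568) and without E18 WT rep 3 and rep 4 together (0.152), which left 6 each. From E18 to P7 all 50 libraries gave 5, without Ttr (-0.881, adjusted p = 0.68) and Clic6 (-0.746, 0.205), and leaving out the 2 libraries with Xist counts gave 5, library size only 5, DESeq2 7, the 10 CPM minimum 4, the fit without E18 WT rep 3 and rep 4 together 4 and limma-voom 3. Kl was gained in that step with all 50 libraries (0.00332), DESeq2 (0.0448), limma-voom (0.0265) and the fit without E18 WT rep 3 and rep 4 together (0.00336), while DESeq2 gave 1 from P35 to P70. The r of Prlr with Ttr was -0.0020 with a prior count of 0.5. With genes of unplaced scaffolds the members called were as many in each comparison. Apart from the fewer genes tested or libraries fitted, the cause was not tested.

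Leaving out each of the 49 libraries in turn gave 0 to 2 calls at E18, 6 to 7 from E14 to E18, 5 to 7 from E18 to P7, 4 to 5 from P7 to P35 and 0 to 0 in all other comparisons. At E18 the adjusted p of Folr1 (edgeR) ran from 0.01 to 0.11, and was over 0.05 without WT rep 3 or rep 4 or Het rep 2, rep 3, rep 4 or rep 5. That of Ttr ran from 0.0117 to 0.143 and was over 0.05 in 23 of the 49, namely without those 6 libraries, without E18 Het rep 1 (0.0547), or without any 1 of 16 libraries of other ages, where it was at most 0.0533. The call of Clic6 from E18 to P7 was lost without E18 WT rep 4 (0.0551). That of Sostdc1 in the same step was lost in 13 of the 49 (at most 0.0766), without E18 Het rep 1, rep 3, rep 4 or rep 5, E18 WT rep 1, rep 2 or rep 5, P7 Het rep 2, rep 4 or rep 5, or P7 WT rep 1, rep 3 or rep 5. That of Prlr from P7 to P35 was lost without P35 Het rep 1, P35 WT rep 5, P7 WT rep 3 or P7 WT rep 5 (at most 0.0678).

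Replicate numbers are shared by the genotypes. Deviations of same-numbered WT and Het libraries correlated between -0.2066 and 0.4603, with r over 0.1 in 9 of 25 pairs, so the numbers were not taken to pair the animals. With the number as a replicate block the members called at E18 were 1, Folr1, and no other count of members for genotype or the interaction changed.

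Counts over all tested genes moved more. Without the 2 libraries with Xist counts, 1164 genes were called at E14 (27 with them), 1.18% of tested genes at E18 (0.3%) and 65 for the interaction (1). At E18 the DESeq2 test called 207, limma-voom 22, the replicate block 78, and the fit without E18 WT rep 3 and rep 4 together 15. With all 50 libraries 120 were called at P7 (7 without P7 WT rep 2). Depth limits what can be said of Folr1, Otx2 and Ttr where they have 0 to 20 counts.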
